A study of Mus musculus with 12 samples.

Results

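Fatty acid synthesis and desaturation genes were followed in jejunal epithelium of mice with and without cytochrome P450 reductase. The 10 genes are Acly, Acss2, Acaca, Fasn, Elovl6, Scd1, Scd2, Fads1, Fads2 and Mlxipl, and they were taken as every probe set that the platform annotation gives to 1 of these symbols. All 10 genes were on the array, with 20 of its 22690 probe sets. The 12 samples were RNA pools of 3 male C57BL/6 mice each, aged 6 to 8 weeks, and every group held 3 pools. The 2 genotypes and 2 diets were crossed into 4 groups, named below as wild-type control, wild-type quercetin, POR-null control and POR-null quercetin. All mice first ate the soya-free powdered RM3 diet for 14 days, and the quercetin groups then received the plant flavonol quercetin in it at 6.2 g per kg (7 mg per mouse) for 24 hours. Tissue was the scraped epithelium of the middle part of the small intestine. POR-null mice lack cytochrome P450 reductase (POR), but neither the tissues of the deletion nor a driver is given in the labels, and Por, the targeted gene, was not analysed here, which leaves the labelled genotypes unchecked. Pooling hides differences between single mice, and p-values measure the spread between pools. In pooled bulk tissue, fewer cells of a type and less RNA per cell cannot be told apart.

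Cells make fatty acids from acetyl-CoA in the cytosol. Acly makes acetyl-CoA from citrate and Acss2 from acetate, Acaca carboxylates it to malonyl-CoA, and Fasn builds palmitate. Elovl6 lengthens the chain, the Scd enzymes place the first double bond, and Fads1 and Fads2 desaturate polyunsaturated chains. Transcription of these genes is driven by SREBP factors, which also drive cholesterol synthesis, and by the carbohydrate-responsive factor ChREBP, the product of Mlxipl. POR passes electrons from NADPH to microsomal cytochromes P450 and to enzymes of sterol synthesis, whereas the desaturases are usually served by cytochrome b5 and its own reductase.

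The deposited values are log2 intensities, so a difference of 1 is a doubling. The arrays resembled each other closely, with medians of 5.94 to 6.01, correlations between arrays of 0.989 to 0.995 and a median SD between pools of a group of 0.12. Enterocyte markers were high in every pool (Fabp2 at 13.48 to 13.72 and Vil1 at 12.12 to 12.32). Smooth muscle markers stood out in wild-type control pool 3 (mean log2 level, centred over the pools, 0.68) and POR-null control pool 1 (0.54), against -0.25 to 0.18 in the other pools. T cell markers were at -0.29 to -0.18 in wild-type control pools and at -0.06 to 0.22 in all others, and their part in any genotype or diet difference below was not tested. B and plasma cell markers ran from -0.44 to 0.49, Paneth cell markers from -0.46 to 0.28 and the 9 other marker lists, without adipocyte markers, from -0.23 to 0.235. A segment score, the mean of ileal markers minus that of duodenal and jejunal markers, went from -1.01 to 0.14 in wild-type control pools, 0.05 to 1.21 in wild-type quercetin, 0.06 to 0.10 in POR-null control and -0.47 to 0.26 in quercetin-fed POR-null pools.

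The leading difference among the 10 genes was in Scd2, whose signal was higher in POR-null than in wild-type pools on both diets. Averaged over the diets, smaller differences above 0 were measured for Fasn, both Acss2 probe sets, Elovl6 1417403_at and Acly 1425326_at, and Mlxipl was lower in POR-null pools on the control diet. None of the 20 probe sets passed an adjusted p of 0.05 in limma's moderated test in any of 7 contrasts. For the average genotype effect (POR-null minus wild-type over both diets), 0% of all 22626 tested probe sets passed either. At an unadjusted p under 0.05, 8 of the 20 member probe sets were higher in POR-null pools, against 2.43% of all probe sets, and 1 was lower, against 2.58%. Probe sets of the same gene are not independent. The 10 genes were also chosen with earlier results of these data known, so their counts, here and below, are no independent evidence. With 1 probe set per gene, 3 of the 10 genes were higher and 1 lower, against 2.28% and 2.61% of all genes. The difference was above 0 for 18 of 20 member probe sets and for 49.5% of all. Over the 10 genes, with 1 probe set each, the median difference was 0.15, and over all 12393 genes it was -0.0017.

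**Figure D1:**
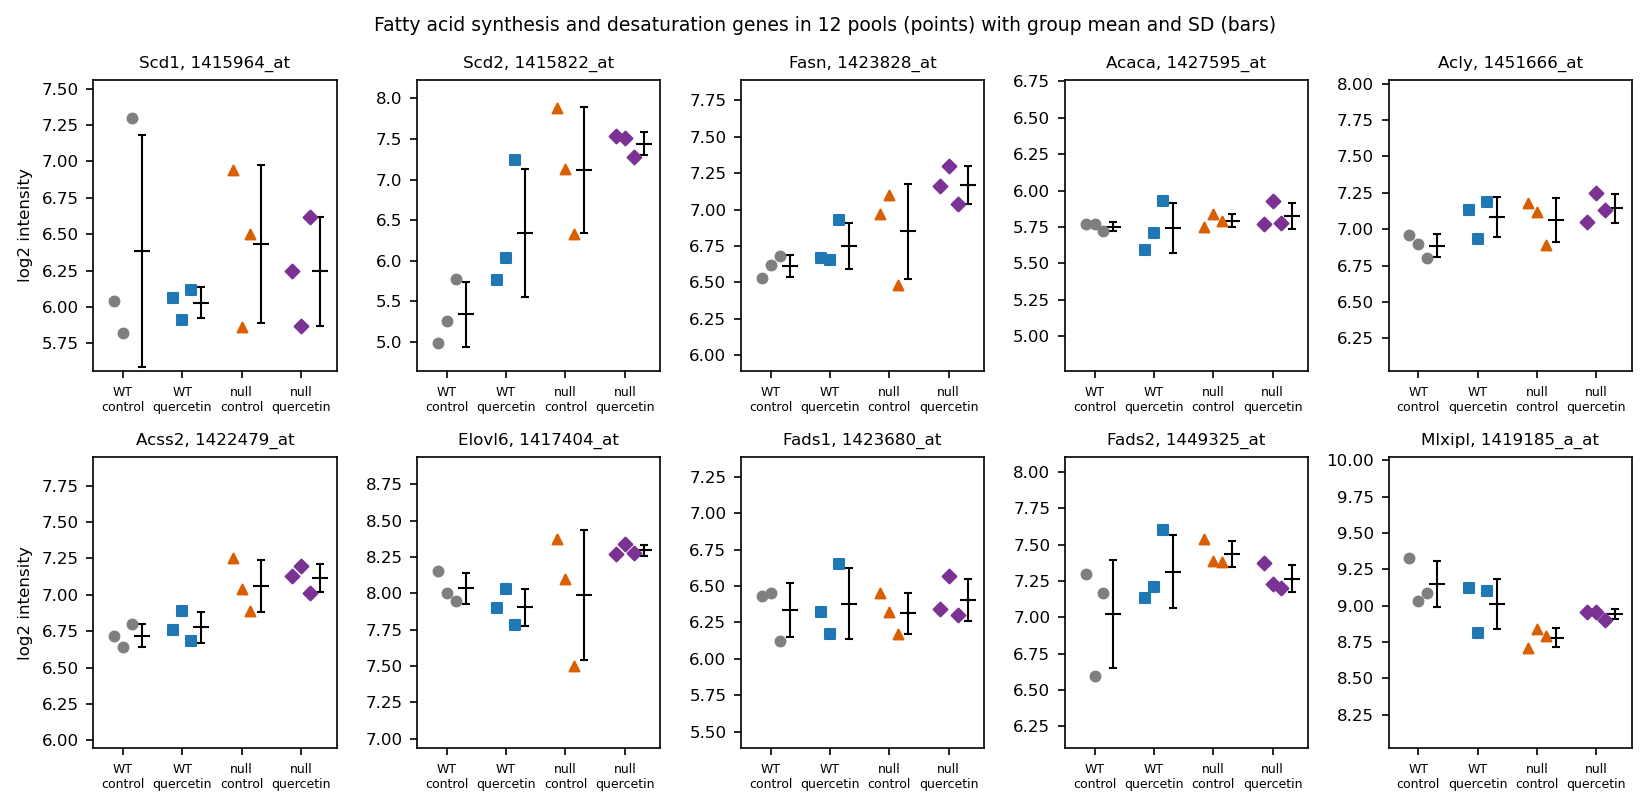
Log2 intensity of the 10 genes, 1 probe set each (the one with the highest mean), in 4 groups of 3 pools. Points are pools, and bars give the group mean and SD. Scd2 spans 4.99 to 7.88, while Acaca stays between 5.59 and 5.93.

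Scd2 and Scd1 are stearoyl-CoA desaturases, neighbouring genes on chromosome 19. Scd2 (probe set 1415822_at) read 4.99, 5.26 and 5.78 in wild-type control pools and 5.76, 6.03 and 7.24 in quercetin-fed wild-type pools. In POR-null pools it read 7.88, 7.13 and 6.33 on the control diet and 7.54, 7.51 and 7.28 on quercetin. On each diet the 3 POR-null pools lay above the 3 wild-type pools, but across diets wild-type quercetin pool 3 exceeded 2 of the POR-null control pools. The group means were 5.34 ± 0.40, 6.34 ± 0.79, 7.11 ± 0.78 and 7.44 ± 0.14 (SD, n = 3 pools each), in the order in which the groups were named. The genotype difference was 1.77 ± 0.36 (SE) on the control diet, a 3.41-fold higher signal, with an adjusted p of 0.4 in limma. On quercetin it was 1.10 ± 0.36, or 2.14-fold, with an adjusted p of 0.997. Averaged over the diets it was 1.44 ± 0.26, with a 95% interval of 0.89 to 1.98 and an adjusted p of 0.0891. By p, this probe set was number 12 of all 22626 in that contrast.

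POR-null control pool 3 was the lowest POR-null pool for Scd2. Without it, the average genotype difference was 1.63 with a limma adjusted p of 0.00598, and the difference on the control diet was 2.16 with an adjusted p of 0.0276. Without wild-type quercetin pool 3, the average difference was 1.66 with an adjusted p of 0.0279. With arrays weighted by their fit, it was 1.53 with an adjusted p of 0.0414. The call for Scd2 therefore turned on single pools and on the weights. Over all alternatives run, the average difference stayed above 0 and its adjusted p ran from 0.00598 to 0.64, the latter with a trend and robust variance model.

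The other Scd2 probe sets gave smaller differences of the same sign. Probe set 1415823_at read 5.57 to 6.04 in wild-type control pools, 5.92 to 6.87 in quercetin-fed wild-type pools, 6.13 to 7.07 in POR-null control and 6.67 to 7.03 in quercetin-fed POR-null pools. Its average genotype difference was 0.72 ± 0.17, with a limma adjusted p of 0.289 (0.86 and 0.0387 without POR-null control pool 3, with 0.0387 to 0.869 over all alternatives). Probe set 1415824_at was dim, at 3.78 to 4.57 over all pools, and differed by 0.35 ± 0.11. Over the 3 probe sets the average Scd2 difference thus ran from 0.35 to 1.44, and with the probe sets of the gene averaged it was 0.84 ± 0.17. Without the 3 pools highest in smooth muscle markers, the control-diet difference of 1415823_at was 0.50 ± 0.28, against 0.83 with them.

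Segment scores are given beside Scd2 because the wild-type pools differed in both. The 3 wild-type pools with the highest Scd2 readings were quercetin pools 3 and 2 and control pool 3, with segment scores of 1.21, 0.78 and 0.14, and the lowest Scd2 reading lay in control pool 1, at a score of -1.01. The quercetin difference of Scd2 in wild-type mice was 1.00 ± 0.36 (adjusted p = 0.438 in limma), 0.55 ± 0.32 without wild-type quercetin pool 3, and 0.15 ± 0.48 once the segment score entered as a covariate. The score was mostly higher on quercetin in wild-type pools. Segment and diet therefore cannot be told apart there, in this or later fits with the score. The score also differed between the genotypes within a diet, with overlap. On the control diet it was -1.01 to 0.14 in wild-type and 0.06 to 0.10 in POR-null pools. On quercetin it was 0.05 to 1.21 in wild-type and -0.47 to 0.26 in POR-null pools. For all members, genotype differences within a diet therefore cannot be fully told apart from segment. The average genotype difference of Scd2 was 1.51 ± 0.22 with the segment covariate, against 1.44 without it. On the control diet the difference was 1.33 ± 0.37, against 1.77, and on quercetin it was 1.69 ± 0.40, against 1.10. In POR-null mice the quercetin difference was 0.33 ± 0.36. The difference between the 2 quercetin differences (the interaction) was -0.67 ± 0.51, with an adjusted p of 0.956, and 0.36 ± 0.63 with the covariate. Leaving out wild-type quercetin pool 3 gave an interaction of -0.22. Leaving out a POR-null control pool gave -0.29 for pool 1 and -1.06 for pool 3.

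For Scd1 no separation of the genotypes was seen in its brighter probe set. Probe set 1415964_at read 6.04, 5.82 and 7.30 in wild-type control pools, 6.06, 5.91 and 6.12 in quercetin-fed wild-type pools, 6.94, 5.86 and 6.50 in POR-null control pools, and 6.25, 5.87 and 6.62 in quercetin-fed POR-null pools. The highest readings, 7.30 and 6.94, came from the pools with the highest smooth muscle markers, and the genotypes overlapped on both diets. The average genotype difference was 0.13 ± 0.23, with a 95% interval of -0.35 to 0.61. The adipocyte markers, a mean over 7 of 9 listed genes, stood highest in wild-type control pool 3 at 0.22, against -0.13 to 0.06 elsewhere, and 2 of the 7, the adipokine Adipoq and the lipase Lipe, were at their highest there. Their part in the Scd1 readings was not tested. Without the 3 pools highest in smooth muscle markers, the average genotype difference was 0.23 ± 0.16. The other Scd1 probe set, 1415965_at, stayed at 3.50 to 3.78.

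**Figure D2:**
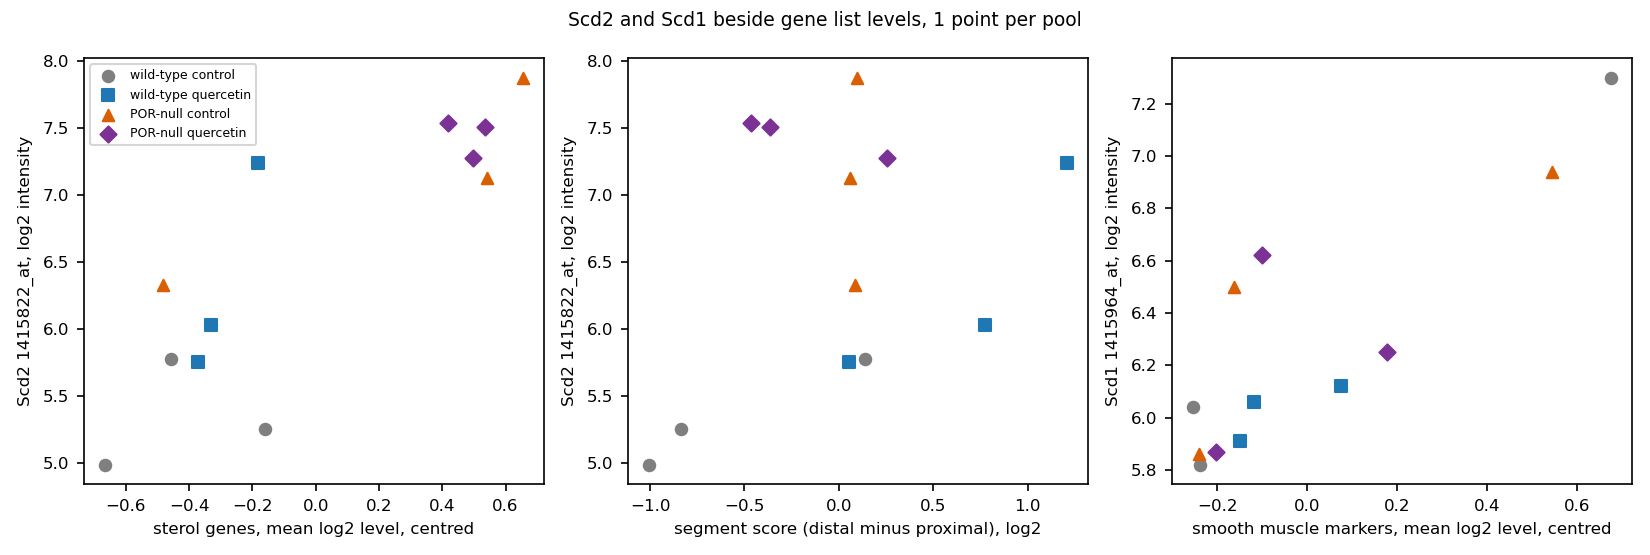
Log2 intensity of Scd2 against the centred mean of 18 sterol genes (left) and the segment score (middle), and of Scd1 against the centred mean of 9 smooth muscle markers (right), 1 point per pool. POR-null control pool 3 lies with the wild-type pools in the left panel, at -0.48, and the 2 highest Scd1 points, at 7.30 and 6.94, lie farthest to the right in the right panel.

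Acetyl-CoA supply was represented by Acss2 and Acly. The Acss2 promoter is shown with those of Fasn, Elovl6 and Mlxipl because, after Scd2, these 4 genes had the smallest p in the average genotype effect. Sequences are from RefSeq (GRCm38.p6), 250 bases before to 50 after the start, read 5′ to 3′ on the gene's strand. Of the 10 genes, 7 had a promoter in the table, with 8 windows in all. Capitals mark the motifs searched on both strands, namely the NF-Y box CCAAT, the Sp1 box GGGCGG, the E-box CACGTG and a sterol response element, TCACNCCAC. The windows are chr2:155517793-155518092 (plus strand) for Acss2, chr11:120824498-120824797 (minus strand) for Fasn, chr3:129532136-129532435 (plus strand) for Elovl6 and chr5:135089640-135089939 (plus strand) for Mlxipl.
Acss2: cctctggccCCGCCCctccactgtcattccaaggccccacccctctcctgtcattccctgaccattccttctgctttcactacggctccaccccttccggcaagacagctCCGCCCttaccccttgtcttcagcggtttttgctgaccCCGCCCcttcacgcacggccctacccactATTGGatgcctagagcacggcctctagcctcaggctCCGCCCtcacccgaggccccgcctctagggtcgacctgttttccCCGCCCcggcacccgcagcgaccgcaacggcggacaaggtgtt
Fasn: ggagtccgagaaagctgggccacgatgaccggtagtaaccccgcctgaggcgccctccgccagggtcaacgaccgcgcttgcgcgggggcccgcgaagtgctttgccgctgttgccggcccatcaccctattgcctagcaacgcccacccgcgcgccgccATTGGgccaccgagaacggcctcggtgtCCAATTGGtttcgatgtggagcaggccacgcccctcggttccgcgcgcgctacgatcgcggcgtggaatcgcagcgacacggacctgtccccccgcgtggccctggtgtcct
Elovl6: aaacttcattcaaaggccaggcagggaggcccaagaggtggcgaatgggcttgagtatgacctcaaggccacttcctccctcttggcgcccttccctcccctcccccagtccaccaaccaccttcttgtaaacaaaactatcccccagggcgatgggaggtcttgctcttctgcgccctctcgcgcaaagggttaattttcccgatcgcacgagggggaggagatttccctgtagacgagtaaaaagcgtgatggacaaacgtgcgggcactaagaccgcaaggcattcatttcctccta
Mlxipl: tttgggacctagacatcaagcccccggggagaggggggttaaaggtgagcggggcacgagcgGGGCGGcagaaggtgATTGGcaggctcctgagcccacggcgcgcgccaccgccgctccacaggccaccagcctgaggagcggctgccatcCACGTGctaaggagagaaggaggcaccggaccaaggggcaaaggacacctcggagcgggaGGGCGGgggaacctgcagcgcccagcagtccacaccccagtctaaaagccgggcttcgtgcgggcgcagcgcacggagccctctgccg

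The Fasn window held 3 NF-Y boxes, of which a pair overlapped by 2 bases, and the Acss2 window held 1 NF-Y box and 5 Sp1 boxes. The Mlxipl window held 1 NF-Y box, 1 E-box and 2 Sp1 boxes, and the Elovl6 window held none of the 4 motifs. Over the 8 member windows, the NF-Y box was in 4, the Sp1 box in 4, the E-box in 1 and the sterol response element in 1, that of a second Mlxipl start. Over all 32851 windows of the table, the shares were 37.4%, 35.7%, 7.15% and 1.24%. A match is a description of these letters, not a site in use.

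Acss2 (1422479_at) read 6.72, 6.64 and 6.80 in wild-type control pools and 6.76, 6.89 and 6.68 in quercetin-fed wild-type pools. It read 7.25, 7.04 and 6.89 in POR-null control pools and 7.13, 7.20 and 7.01 in quercetin-fed POR-null pools. On each diet every POR-null pool was above every wild-type pool, and across diets the groups met only at 6.89. The genotype difference was 0.34 ± 0.10 on the control diet and 0.34 ± 0.10 on quercetin, a 1.27-fold and a 1.26-fold higher signal. Averaged, it was 0.34 ± 0.07, with a limma adjusted p of 0.14 (0.38 and 0.0404 without POR-null control pool 3, with 0.0404 to 0.571 over all alternatives). The second Acss2 probe set, 1422478_a_at, differed by 0.19 ± 0.08, with 5.10 to 5.47 in wild-type pools and 5.24 to 5.66 in POR-null pools.

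Acly had 5 probe sets that differed among themselves. Probe set 1451666_at read 6.80 to 6.96 in wild-type control pools and 6.89 to 7.25 in the others, and its average genotype difference was 0.12 ± 0.07. Probe set 1425326_at read 5.67 to 6.17 in wild-type and 5.87 to 6.44 in POR-null pools, a difference of 0.28 ± 0.10 with a limma adjusted p of 0.842. Its control-diet difference of 0.30 became 0.17 ± 0.14 when POR-null control pool 2 was left out, and 0.16 ± 0.15 when segment scores entered the fit. Probe set 1439459_x_at differed by 0.15 ± 0.13. The remaining 2 were dim, at 2.77 to 3.38, and differed by -0.01 ± 0.06 (1439445_x_at) and 0.03 ± 0.06 (1438389_x_at).

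Chain building was represented by Acaca and Fasn. Acaca (1427595_at) read 5.59 to 5.93 over all pools, and its average genotype difference was 0.06 ± 0.06, with a 95% interval of -0.07 to 0.20. Fasn (1423828_at) read 6.53, 6.62 and 6.68 in wild-type control pools, 6.67, 6.65 and 6.93 in quercetin-fed wild-type pools, 6.97, 7.10 and 6.48 in POR-null control pools, and 7.16, 7.30 and 7.04 in quercetin-fed POR-null pools. On quercetin the genotypes did not overlap, whereas on the control diet POR-null pool 3 was below every wild-type pool. The difference was 0.42 ± 0.14 on quercetin, a 1.33-fold higher signal, and 0.24 ± 0.14 on the control diet. Averaged, it was 0.33 ± 0.10, with a limma adjusted p of 0.617 (0.42 and 0.0343 without POR-null control pool 3, with 0.0343 to 0.998 over all alternatives).

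Elovl6, the elongase of palmitate, was measured by a pair of probe sets that gave like patterns. Probe set 1417404_at read 8.15, 8.00 and 7.95 in wild-type control pools, 7.90, 8.03 and 7.78 in quercetin-fed wild-type pools, 8.37, 8.10 and 7.50 in POR-null control pools, and 8.27, 8.34 and 8.28 in quercetin-fed POR-null pools. POR-null control pool 3 was the lowest of all 12 pools, and the genotypes did not overlap on quercetin. The genotype difference was 0.39 ± 0.16 on quercetin and -0.04 ± 0.16 on the control diet, which became 0.20 ± 0.11 without POR-null control pool 3. Probe set 1417403_at differed by 0.55 ± 0.17 on quercetin, a 1.47-fold higher signal, and by 0.18 ± 0.17 on the control diet. Its adjusted p on quercetin was 0.947 in limma, and the interaction was 0.38 ± 0.24. Leaving out POR-null control pool 3 gave an interaction of 0.15 ± 0.18. The covariate of segment scores gave 0.06 ± 0.32, and the fit lacking the 3 pools highest in smooth muscle markers gave 0.74 ± 0.22.

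The polyunsaturated desaturases showed no common direction. Fads1 (1423680_at), the delta-5 desaturase, read 6.12 to 6.65, and its average genotype difference was 0.0017 ± 0.09. Fads2 (1449325_at), the delta-6 desaturase, read 7.30, 6.60 and 7.17 in wild-type control pools, 7.13, 7.21 and 7.60 in quercetin-fed wild-type pools, 7.54, 7.39 and 7.38 in POR-null control pools, and 7.37, 7.23 and 7.20 in quercetin-fed POR-null pools. POR-null control pools lay above the wild-type control pools, among which pool 2 was low, and the groups overlapped on quercetin. The differences were 0.41 ± 0.16 on the control diet (adjusted p = 0.72 in limma) and -0.05 ± 0.16 on quercetin. The interaction was -0.46 ± 0.22, with an adjusted p of 0.956. Without wild-type control pool 2, the control-diet difference was 0.20 ± 0.13 and the interaction -0.25 ± 0.17. With the segment score as a covariate the interaction was -0.20 ± 0.30. The second Fads2 probe set, 1419031_at, read 6.05 to 6.87 and differed between genotypes by 0.02 ± 0.11.

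Mlxipl (1419185_a_at) went the other way. It read 9.33, 9.03 and 9.09 in wild-type control pools, 9.12, 8.81 and 9.10 in quercetin-fed wild-type pools, 8.71, 8.84 and 8.79 in POR-null control pools, and 8.96, 8.96 and 8.90 in quercetin-fed POR-null pools. On the control diet all POR-null pools were below all wild-type pools, and on quercetin the genotypes overlapped. The difference was -0.37 ± 0.10 on the control diet, a 1.29-fold lower signal, with a limma adjusted p of 0.549. On quercetin it was -0.07 ± 0.10. Averaged over the diets it was -0.22 ± 0.07, with a limma adjusted p of 0.747. The interaction was 0.30 ± 0.14, with an unadjusted p of 0.0496 and an adjusted p of 0.956, and was 0.16 ± 0.20 after segment scores entered the fit.

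**Figure D3:**
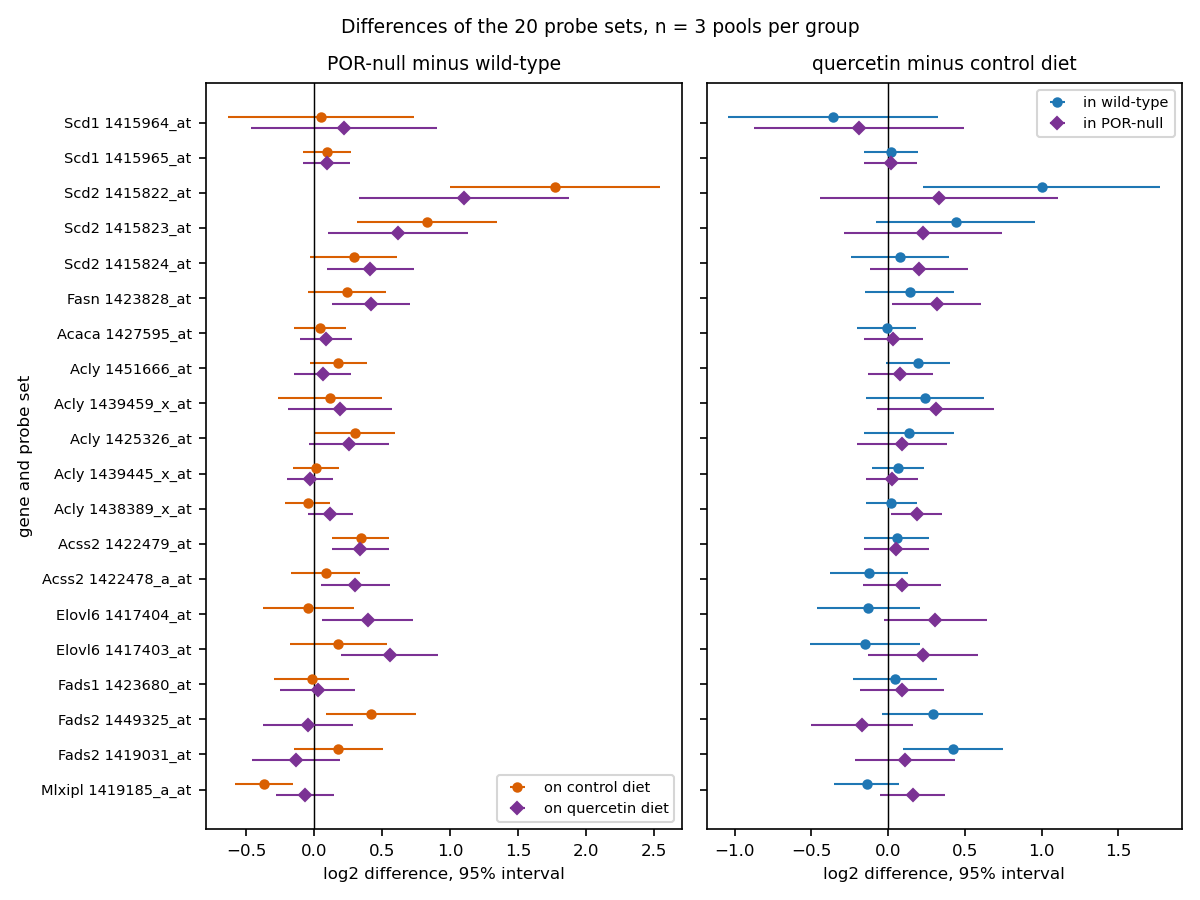
Log2 differences with 95% intervals for the 20 probe sets, POR-null minus wild-type on each diet (left) and quercetin minus control diet in each genotype (right). The Scd2 probe set 1415822_at has the largest genotype differences, 1.77 on the control diet and 1.10 on quercetin, and Mlxipl the lowest, -0.37 on the control diet.

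Counts over the members were also made within each diet. On the control diet, 0 of 20 member probe sets and 0% of all passed the adjusted p. At an unadjusted p under 0.05, 5 were higher in POR-null pools (3.24% of all) and 1 was lower (2.85%). The genotypes did not overlap in 4 probe sets with POR-null higher (5.15% of all) and in 1, that of Mlxipl, with POR-null lower (4.29%). On quercetin, again 0 of 20 and 0% of all passed the adjusted p. There, 8 were higher at an unadjusted p under 0.05 (1.83% of all) and 0 lower (2.05%), and the genotypes did not overlap in 9 with POR-null higher (3.77%) and in 0 with POR-null lower (5.41%). Those 9 were probe sets of Scd2, Fasn, Acss2 and Elovl6, and Scd1 1415965_at, Acly 1439459_x_at and Acly 1438389_x_at. For the Scd1 and Acly probe sets named, the differences were 0.09 ± 0.08, 0.19 ± 0.18 and 0.12 ± 0.08. Their unadjusted p in limma was 0.287, 0.313 and 0.156, and Scd1 1415965_at and Acly 1438389_x_at were dim. Over both diets together, 0 of 20 separated all 6 POR-null from all 6 wild-type pools in either direction, against 0.137% of all probe sets higher and 0.0972% lower.

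**Figure D4:**
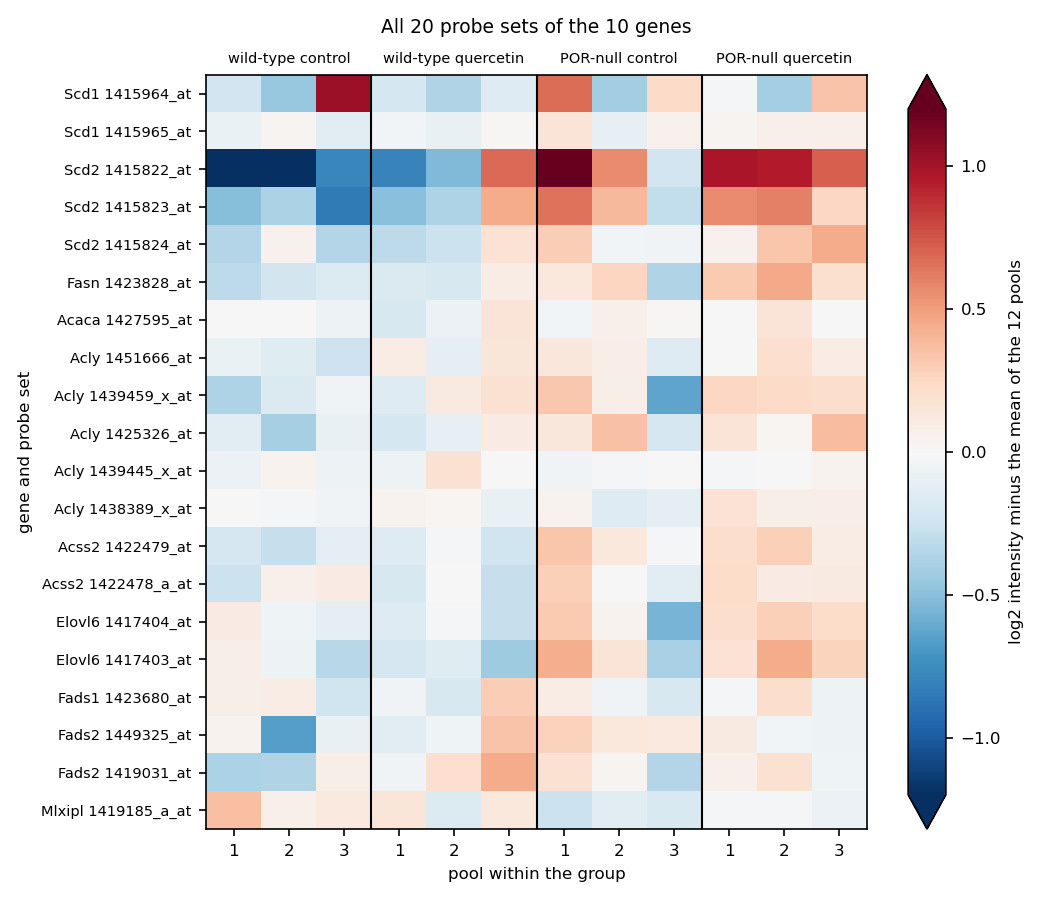
Log2 intensity of the 20 probe sets minus their mean over the 12 pools, by pool, with colours saturating at 1.2. POR-null quercetin pools are above the mean for most probe sets. POR-null control pool 3 is below the mean, with the other POR-null control pools above it, for Fasn, Scd2 1415822_at and 1415823_at, and Fads2 1419031_at. The same holds for both Acss2 and both Elovl6 probe sets and for Acly 1451666_at, 1425326_at and 1439459_x_at.

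Quercetin was the other factor of the design, and no member probe set passed its tests. For the average quercetin effect, 0 of 20 member probe sets and 0.00884% of all passed the adjusted p. At an unadjusted p under 0.05, 4 were higher on quercetin (3.96% of all) and 0 lower (3.85%), and 0 separated all quercetin from all control pools (0.102% of all higher, 0.168% lower). The 4 were Scd2 1415822_at (0.66 ± 0.26), Fasn (0.23 ± 0.10), Acly 1439459_x_at (0.28 ± 0.13) and Fads2 1419031_at (0.27 ± 0.11). Without POR-null control pool 3, the Fasn and Acly values were both 0.14, and without wild-type quercetin pool 3 that of Scd2 was 0.44 ± 0.22. With the segment score as a covariate, the values were 0.33 ± 0.26 for Scd2, 0.17 ± 0.14 for Acly and 0.12 ± 0.11 for Fads2. In wild-type mice, 0 of 20 and 0.0133% of all passed the adjusted p, 2 were higher at an unadjusted p under 0.05 (4.56% of all) and 0 lower (4.16%). Those 2 were Scd2 1415822_at and Fads2 1419031_at, the latter by 0.42 ± 0.15 (0.05 ± 0.20 after segment scores entered the fit), and no member separated the diets (6.99% of all higher, 4.57% lower). As the segment score was mostly higher on quercetin in wild-type pools, segment and diet cannot be told apart in that fit.

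In POR-null mice, 0 of 20 and 0% of all passed the adjusted p for quercetin, 2 were higher at an unadjusted p under 0.05 (2.04% of all) and 0 lower (1.98%). These were Fasn, by 0.32 ± 0.14 (0.13 ± 0.11 without POR-null control pool 3), and Acly 1438389_x_at, a dim probe set, by 0.19 ± 0.08. The diets did not overlap in 2 probe sets with quercetin higher (4.34% of all), that of Mlxipl and Acly 1438389_x_at, and in 1 with quercetin lower (4.71%), Fads2 1449325_at. For the interaction, 0 of 20 and 0% of all passed the adjusted p, 1 was above 0 at an unadjusted p under 0.05 (2.15% of all), that of Mlxipl, and 0 below (2.89%). The contrasts within a diet and a genotype share pools, so their counts are not independent.

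The genes whose readings were most like those of Scd2 over the 12 pools, among 12383 genes outside the 10, were Srebf2 (Pearson's r = 0.956), Ctsc (0.897), Fdft1 (0.896), Aacs (0.893) and Mvd (0.893). For Fasn they were Idi1 (0.927), Hmgcs1 (0.917), Fdft1 (0.915), Nsdhl (0.899) and Tubb2b (0.898). Srebf2 encodes SREBP-2, Fdft1, Mvd, Idi1, Hmgcs1 and Nsdhl encode enzymes of cholesterol synthesis, and Aacs activates acetoacetate. These correlations are a description, since pools share genotype, diet and dissection.

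Srebf2 itself read 7.84, 7.82 and 7.94 in wild-type control pools, 7.94, 7.90 and 8.15 in quercetin-fed wild-type pools, 8.40, 8.26 and 8.07 in POR-null control pools, and 8.26, 8.37 and 8.38 in quercetin-fed POR-null pools. Its average genotype difference was 0.36 ± 0.07, with a limma adjusted p of 0.0891. Of 18 measured sterol genes, a list chosen in earlier work on these data and so no independent evidence, 15 were higher at an unadjusted p under 0.05, against 2.28% of all 12393 genes, and 0 passed the adjusted p, with a median difference of 0.57. The centred mean of the sterol genes was 0.66 and 0.54 in POR-null control pools 1 and 2, and -0.48 in pool 3. It was 0.42 to 0.54 in the quercetin-fed POR-null pools and -0.67 to -0.16 in wild-type pools. The third POR-null control pool was thus within the wild-type range for the sterol genes and below every wild-type pool for Fasn and for the Elovl6 probe set 1417404_at.

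Other genes of the pathway, outside the 10, gave medians nearer to 0. For the counts that follow, the shares of all 12393 genes at an unadjusted p under 0.05 in the average genotype effect were 2.28% higher and 2.61% lower. Of 18 measured genes of carboxylation, elongation and desaturation, 3 were higher and 1 lower in the average genotype effect at an unadjusted p under 0.05, 0 passed the adjusted p, and the median was 0.03. The 3 were Elovl1, an elongase of saturated chains (0.28 ± 0.10), and Tecr and Hsd17b12, the reductases of the elongation cycle (0.21 ± 0.07 and 0.22 ± 0.10). The 1 lower was Hacd1, a dehydratase of that cycle (-0.30 ± 0.12). Scd3, a further stearoyl-CoA desaturase gene, differed by 0.20 ± 0.08 on the control diet and by -0.06 ± 0.08 on quercetin (interaction -0.26 ± 0.12). Of 9 measured genes that supply carbon and NADPH, 1 was higher (2.28% of all genes), the cytosolic isocitrate dehydrogenase Idh1 (0.24 ± 0.09), and the median was 0.02.

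Of 5 measured electron donors of the desaturases, 1 was higher at an unadjusted p under 0.05, Cyb5b, an outer mitochondrial cytochrome b5 (0.21 ± 0.10), and the median was 0.01. Among 16 measured regulators of lipogenesis, Srebf2 alone was at an unadjusted p under 0.05 in the average genotype effect, and the median was 0.0. Thrsp, a lipogenic nuclear protein, was dim, at 4.01 to 4.55 over all pools. It differed by 0.26 ± 0.09 on the control diet and by -0.08 ± 0.09 on quercetin (interaction -0.34 ± 0.13). Among 9 measured targets of Mlxipl, 2 were higher (2.28% of all genes), the pyruvate kinase Pklr (0.18 ± 0.07) and the triokinase Tkfc (0.19 ± 0.08), and the median was 0.05. G6pc, the catalytic subunit of glucose-6-phosphatase, differed by -0.54 ± 0.16 on quercetin and by 0.11 ± 0.16 on the control diet (interaction -0.64 ± 0.22). Among 12 measured genes of fatty acid activation and esterification, 1 was higher, the phosphatidate phosphatase Lpin1 (0.23 ± 0.08), the median was -0.04, and the acyltransferase Gpam differed by -0.35 ± 0.14 on the control diet and by 0.09 ± 0.14 on quercetin (interaction 0.44 ± 0.19). None of the genes of these 6 lists passed the adjusted p in limma.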

How the data were processed

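Per the labels, RNA of each of the 12 pools went onto its own 1-colour Affymetrix 430A array. The file holds log2 intensities by probe set, as deposited after processing by the authors. The tools named are MAS5 and RMA, per the submitters' processing notes, without role or version, so the source of the values is not known. The arrays were not normalized again. Genes were named through the platform annotation. Of 22690 probe sets, 64 controls were left out and 22626 tested. A mean for each group was fitted to all arrays in limma 3.58.1 (R 4.3.3), with 8 residual degrees of freedom and 6.75 from the prior. Tests of 7 contrasts were two-sided, with Benjamini-Hochberg adjustment over all tested probe sets. Differences are log2 ± SE, and group levels are means ± SD. The fit was tested on simulated data. Where a gene had several probe sets, lists used the one with the highest mean among plain _at types. Other types, such as _x_at, _s_at and _a_at, were used only where a gene had no plain one. All member probe sets were reported. Of the other pathway lists, apart from the sterol genes, every gene with an unadjusted p under 0.05 in a genotype contrast or the interaction was named. Cell type markers came from 14 lists. The number of arrays limits the precision. Alternatives in normalization, variance model, covariates, probe set choice and pools left out were tried, and the closing section gives their effect. The members and lists were chosen with earlier results of these data known. Drawing used Python 3.11.15 with matplotlib 3.10.9.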

Additional observations from a re-analysis of the deposited data

How the results depend on the processing

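Under 22 alternatives, 12 of them leaving out 1 pool, the number of member probe sets called stayed at 0 in every contrast except as follows. In the average genotype effect it was 1 with array weights and 0 to 4 with 1 pool left out, and in the genotype effect on the control diet 0 to 1 with 1 pool left out. The calls with 1 pool left out came without wild-type quercetin pool 3 or POR-null control pool 3. Without the latter, all probe sets called numbered 47 and 24. A fit of only the arrays compared was run for the 4 contrasts of 2 groups. Of 140 member values, 63 changed sign under at least 1 alternative, 5 of 20 in the average genotype effect. No member value, with or without a sign change, was called in the fit as reported, and the cause of the sign changes was not tested.

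No pairing of the pools by replicate number was seen, though this does not exclude one. With group means removed, same-numbered pools of different groups correlated at -0.139 to 0.185 and differently numbered ones at -0.262 to 0.242. Of 12 pools, 4 were nearest to their own number. With the replicate number as a block, the member probe sets called stayed at 0 in all 7 contrasts, and the average genotype difference of Scd2 1415822_at had an adjusted p of 0.129 in limma.

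Quantile normalization turned the sign in the average quercetin effect of Acaca 1427595_at (-0.011). In the wild-type quercetin effect, it turned Scd1 1415965_at (-0.0071). In the interaction, it turned Scd1 1415965_at (0.020) and Acss2 1422479_at (0.012).

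Median centring turned the sign in the average genotype effect of Fads1 1423680_at (-0.0017). In the genotype effect on control diet, it turned Acly 1439445_x_at (-0.0067). In the average quercetin effect, it turned Scd1 1415965_at (-0.0050), Acaca 1427595_at (-0.012) and Mlxipl 1419185_a_at (-0.013). In the wild-type quercetin effect, it turned Scd1 1415965_at (-0.017) and Acly 1438389_x_at (-0.017). In the interaction, it turned Scd1 1415965_at (0.023) and Acss2 1422479_at (0.023).

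Array weights turned the sign in the genotype effect on control diet of Elovl6 1417404_at (0.0093). In the average quercetin effect, it turned Elovl6 1417403_at (-0.0097). In the interaction, it turned Scd1 1415964_at (-0.079), Scd1 1415965_at (0.0042) and Acly 1439459_x_at (-0.041).

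The segment score as a covariate turned the sign in the average genotype effect of Fads1 1423680_at (-0.0059). In the genotype effect on control diet, it turned Scd1 1415964_at (-0.40), Acaca 1427595_at (-0.0089), Acly 1439459_x_at (-0.020), Acly 1439445_x_at (-0.0088), Elovl6 1417404_at (0.016), Fads1 1423680_at (0.024) and Fads2 1419031_at (-0.016). In the genotype effect on quercetin diet, it turned Fads1 1423680_at (-0.036), Fads2 1449325_at (0.10) and Fads2 1419031_at (0.12). In the average quercetin effect, it turned Acaca 1427595_at (-0.025) and Fads2 1449325_at (-0.024). In the wild-type quercetin effect, it turned Scd2 1415824_at (-0.13), Acly 1439459_x_at (-0.022), Acly 1425326_at (-0.14) and Elovl6 1417403_at (0.11). In the POR-null quercetin effect, it turned Scd1 1415964_at (0.0022). In the interaction, it turned Scd2 1415822_at (0.36), Acly 1425326_at (0.29), Acly 1439445_x_at (0.0041), Fads1 1423680_at (-0.061) and Fads2 1419031_at (0.14).

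The fit without the 3 muscle-rich arrays turned the sign in the average genotype effect of Acly 1438389_x_at (-0.018) and Fads1 1423680_at (-0.070). In the genotype effect on control diet, it turned Acly 1439459_x_at (-0.010) and Elovl6 1417403_at (-0.12). In the average quercetin effect, it turned Scd1 1415964_at (0.083), Acss2 1422478_a_at (0.051) and Mlxipl 1419185_a_at (-0.028). In the wild-type quercetin effect, it turned Scd1 1415964_at (0.10), Scd1 1415965_at (-0.015) and Fads1 1423680_at (-0.060). In the POR-null quercetin effect, it turned Scd1 1415964_at (0.065). In the interaction, it turned Scd1 1415964_at (-0.035), Scd1 1415965_at (0.10), Scd2 1415823_at (0.075), Acly 1451666_at (0.032) and Acss2 1422479_at (0.043).

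The mean of all probe sets of a gene turned the sign in the genotype effect on control diet of Elovl6 1417404_at (0.067). In the wild-type quercetin effect, it turned Acss2 1422479_at (-0.035). In the interaction, it turned Acly 1451666_at (0.0073) and Acss2 1422479_at (0.11).

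The average genotype effect with 1 pool left out ran across 0 for Fads2 1419031_at (-0.040 to 0.096), Scd1 1415964_at (-0.010 to 0.36), Acly 1439445_x_at (-0.034 to 0.026) and Fads1 1423680_at (-0.052 to 0.069). The genotype effect on control diet with 1 pool left out ran across 0 for Scd1 1415964_at (-0.24 to 0.50), Acly 1439445_x_at (-0.010 to 0.045), Acss2 1422478_a_at (-0.033 to 0.18), Elovl6 1417404_at (-0.23 to 0.20), Fads1 1423680_at (-0.13 to 0.052) and Acly 1439459_x_at (-0.085 to 0.40). So it did for Elovl6 1417403_at (-0.0083 to 0.41). The interaction with 1 pool left out ran across 0 for Scd1 1415965_at (-0.070 to 0.055), Fads1 1423680_at (-0.062 to 0.18), Scd2 1415824_at (-0.013 to 0.27), Acly 1425326_at (-0.19 to 0.083), Acss2 1422479_at (-0.088 to 0.092) and Scd1 1415964_at (-0.29 to 0.45). So it did for Acly 1439459_x_at (-0.21 to 0.27), Acaca 1427595_at (-0.033 to 0.14), Acly 1439445_x_at (-0.088 to 0.032), Scd2 1415823_at (-0.48 to 0.082) and Fasn 1423828_at (-0.0083 to 0.30). The average quercetin effect with 1 pool left out ran across 0 for Acss2 1422478_a_at (-0.074 to 0.040), Fads2 1449325_at (-0.046 to 0.13), Mlxipl 1419185_a_at (-0.020 to 0.060), Elovl6 1417403_at (-0.077 to 0.13), Acaca 1427595_at (-0.035 to 0.050) and Scd1 1415965_at (-0.015 to 0.048). So it did for Elovl6 1417404_at (-0.034 to 0.18). The wild-type quercetin effect with 1 pool left out ran across 0 for Scd1 1415964_at (-0.64 to 0.10), Scd1 1415965_at (-0.015 to 0.065), Fads1 1423680_at (-0.088 to 0.15), Acaca 1427595_at (-0.10 to 0.067), Acly 1438389_x_at (-0.0050 to 0.060) and Acly 1439445_x_at (-0.0050 to 0.12). So it did for Scd2 1415824_at (-0.073 to 0.21). The genotype effect on quercetin diet with 1 pool left out ran across 0 for Fads1 1423680_at (-0.082 to 0.16), Acly 1451666_at (-0.017 to 0.11), Acly 1439445_x_at (-0.078 to 0.042) and Fads2 1449325_at (-0.14 to 0.097). The POR-null quercetin effect with 1 pool left out ran across 0 for Scd1 1415964_at (-0.47 to 0.067), Scd1 1415965_at (-0.050 to 0.075), Scd2 1415822_at (-0.062 to 0.71), Scd2 1415823_at (-0.043 to 0.43), Acly 1451666_at (-0.0067 to 0.14) and Acly 1425326_at (-0.058 to 0.22). So it did for Acss2 1422479_at (-0.032 to 0.15), Acss2 1422478_a_at (-0.0033 to 0.21), Elovl6 1417403_at (-0.0033 to 0.41), Fads2 1419031_at (-0.042 to 0.22) and Acaca 1427595_at (-0.018 to 0.062).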
